A study of Mus musculus with 3 samples.

Results

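Natural killer (NK) cells of mouse blood were divided by the transcripts of 2 surface receptors, Klrg1 and Cd27. Of 23870 cell barcodes in 3 libraries, 896 were taken as NK cells: barcodes with at least 200 detected genes and at least 3 unique molecular identifiers (UMIs, each a counted molecule) of Ncr1, Klrb1c and Klre1 together, at most 1 UMI of the CD3 genes, at most 2 of the B-cell genes Cd79a, Cd79b and Ms4a1, and at most 1 of the myeloid genes Csf1r and Csf3r. Cells with at least 1 Klrg1 UMI and no Cd27 UMI are called Klrg1-positive here and numbered 421 (310, 78 and 33 in replicates 1, 2 and 3). Cells with at least 1 Cd27 UMI and no Klrg1 UMI are called Cd27-positive and numbered 131 (98, 16 and 17). The remaining cells had both transcripts (80) or neither (264). The cells were thus chosen by their measured UMIs of these genes, whose levels are given below only as a description.

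The blood came from untreated mice labelled male, aged 8 weeks (replicate 1), 9 weeks (replicate 2) and 10 weeks (replicate 3), and the labels name no strain. Red cells were lysed, and leukocytes stained with DAPI and Draq5 were sorted and chemically fixed before RNA was read out with a probe-based 10x Genomics kit. Each library holds all blood leukocytes of its sample, and nothing in the labels says whether each sample is a separate animal. The p-values rest on how far the difference between the sets of cells varied over these 3 samples, with spread estimates shared between genes. They reach no further than these samples. The comparison is between 2 sets of cells within each sample, since the libraries have no treated group.

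NK cells are innate lymphocytes that kill infected or transformed cells with perforin and granzymes and secrete cytokines. In the mouse, CD27, a tumour necrosis factor receptor family member that binds CD70, marks earlier stages of their maturation, and CD11b and KLRG1, an inhibitory lectin-like receptor for cadherins, appear on later stages. T-bet and Eomes, T-box transcription factors, direct this programme, Zeb2 is needed for its last steps, and TCF-1, encoded by Tcf7, acts early in it.

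The libraries held 11105, 5736 and 7029 barcodes with 45718031, 19591648 and 23443660 UMIs (median 3539, 3138 and 3086 UMIs per barcode). Replicate 1 gave 661 of the NK cells, replicate 2 gave 146 and replicate 3 gave 89. Between 48 and 101 barcodes were shared by a pair of libraries, and none of these was an NK cell in both libraries of the pair. All 16 defining NK markers passed the expression filter. Their summed level was 38366 to 40252 CPM (counts scaled to a common library total) in Klrg1-positive and 23894 to 30930 CPM in Cd27-positive cells. For 16 T-cell markers it was 1210 to 1434 and 1965 to 2047 CPM. The NK markers include Prf1, Gzma, Nkg7, Tbx21 and Fcer1g, found higher in Klrg1-positive cells below, and Eomes, found lower. The gap between their sums is therefore no measure of purity. Replicate 2 stood apart in red-cell transcripts, which were 9422 CPM or more in both of its sets of cells and 3180 CPM or less in those of the other replicates.

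Klrg1-positive cells were the largest class in replicates 1 and 2, and Cd27-positive cells were fewer than Klrg1-positive cells in all 3 libraries. Klrg1-positive cells made up 46.9% of NK cells in replicate 1 (exact 95% binomial interval 43.0 to 50.8%), 53.4% in replicate 2 (45.0 to 61.7%) and 37.1% in replicate 3 (27.1 to 48.0%), or 45.8% ± 8.23 (SD, n = 3). Cd27-positive cells made up 14.8% (12.2 to 17.8%), 10.96% (6.40 to 17.2%) and 19.1% (11.5 to 28.8%), or 14.96% ± 4.07 (SD, n = 3). These intervals cover counting error only. Cells with both transcripts were 9.36% ± 3.26 and cells with neither 29.9% ± 7.24 (SD, n = 3), and in replicate 3 the class with neither transcript was as large as the Klrg1-positive class. A class with 0 UMIs of a gene can hold cells that express it below detection: the median depth of cells with both transcripts was 4018, 4819 and 3564 UMIs, and that of cells with neither 2982, 3095 and 2863 UMIs. When every cell was thinned to 2000 UMIs, which left out 31, 5 and 5 shallower NK cells, the class with both transcripts fell to 4.06% ± 2.63 and the class with neither held 43.0% ± 7.88 (SD, n = 3).

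Both genes lie on mouse chromosome 6, minus strand: Klrg1 (ENSMUSG00000030114) at chr6:122270596-122282882 and Cd27 (ENSMUSG00000030336) at chr6:125232622-125237010 in the GRCm38 annotation given for reference. In Klrg1-positive cells Klrg1 stood at 959, 1299 and 1134 CPM of all counts, and in cells with both transcripts at 625, 774 and 692 CPM. Cd27 stood at 394, 571 and 405 CPM in Cd27-positive cells and at 319, 319 and 461 CPM in cells with both. The Klrg1 ranges of these classes did not overlap, and the Cd27 ranges did. At the edge of the definition, 26.1%, 14.1% and 27.3% of Klrg1-positive cells had exactly 1 Klrg1 UMI, and 68.4%, 31.3% and 52.9% of Cd27-positive cells had exactly 1 Cd27 UMI. Just inside the NK definition were 2 cells with 3 UMIs of its NK genes, and just outside were 3 barcodes with 2, all in replicate 1. As a background, B cells of the same libraries (median depth 3219, 3194.5 and 3074 UMIs) had a Klrg1 UMI in 0.0744%, 0.0794% and 0% of cells, against 55.2%, 66.4% and 43.8% of NK cells. Cd27 was found in 1.15%, 1.39% and 1.99% of B cells and in 23.1%, 24.0% and 25.8% of NK cells.

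The genes used to recognise NK cells are given as values only. Ncr1, the activating receptor NKp46, was at 2560, 2761 and 2510 CPM in Klrg1-positive and 2063, 2113 and 1953 CPM in Cd27-positive cells. Klrb1c, the NK1.1 antigen, was at 1253, 1042 and 1099 CPM against 1097, 1056 and 715 CPM, and Klre1 at 1235, 1210 and 1197 CPM against 1231, 1022 and 929 CPM. Ncr1 was higher in Klrg1-positive cells of every replicate, whereas the ranges of the other two overlapped.

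Across the transcriptome, Klrg1-positive NK cells had more transcript of granule proteases, perforin, Zeb2, Irf8 and S1pr5, and Cd27-positive NK cells had more Tcf7, Emb, Ltb, Myb, Cxcr3 and Cxcr4. Counts were summed per replicate and set of cells and compared with edgeR's quasi-likelihood test blocking on replicate, and a gene was called where its p, adjusted over all tested genes by Benjamini-Hochberg, was under 0.05. Of 5049 genes tested, 169 (3.35%) were called, 87 (1.72%) higher and 82 (1.62%) lower in Klrg1-positive cells. The values of the sets did not overlap between replicates for 841 genes (16.7%), called or not. Without replicate 1, which holds most of the cells, 34 genes were called higher and 39 lower among the 2922 that could be tested, and without replicate 2, 56 were higher and 57 lower. With plain library totals in place of TMM scaling, which moved the median log2 fold of all genes to -0.05, the split was 68 higher and 103 lower. Levels from here on are CPM on the TMM scale over tested genes, on which 1 UMI is 1.02, 3.90 and 9.93 CPM in Klrg1-positive and 2.97, 19.2 and 12.9 CPM in Cd27-positive cells of replicates 1 to 3. Folds are log2 of Klrg1-positive over Cd27-positive. The standard error (SE) beside them is the absolute fold divided by the square root of the F statistic of the test. The median depth per cell was 3414.5, 3636 and 3455 UMIs in Klrg1-positive and 3527.5, 3134 and 5046 UMIs in Cd27-positive cells. In cells matched for depth only 1368 genes could be tested, and some of the genes named below were not among them. Of the named genes tested there, 29 kept their outcome and 1 gained a call. The 6 that lost their calls were Xcl1, Il12rb2, Cd48, Fcer1g, Eef1b2 and Ier2.

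**Figure D1:**
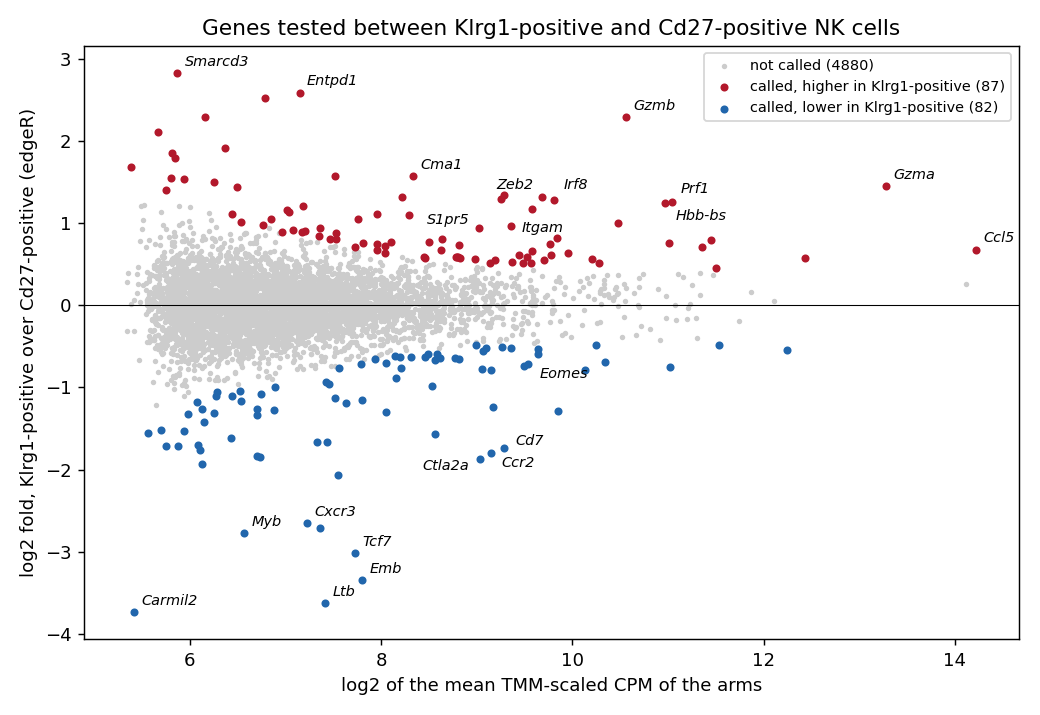
Each point is 1 of the 5049 genes tested, with the log2 of its mean level (TMM-scaled CPM) on the x axis and the log2 fold of Klrg1-positive over Cd27-positive NK cells on the y axis. Red points are the 87 genes called higher and blue points the 82 called lower by edgeR at an adjusted p of 0.05; Gzma and Ccl5 lie at the right with positive folds, and Ltb, Emb, Tcf7 and Carmil2 at the bottom.

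Genes of the cytotoxic granule were higher in Klrg1-positive cells. Of 23 genes listed, 19 were tested, 10 were called higher and none lower (52.6% called, against 3.35% of all genes tested). The median log2 fold of the 19 was 0.58, against 0.00 for all genes tested. Perforin (Prf1), which forms the pore through which granzymes reach the target cell, was at 2974, 3384 and 2581 CPM in Klrg1-positive and 1380, 1538 and 798 CPM in Cd27-positive cells (log2 fold 1.26, SE 0.14, adjusted p = 1.93e-09). The lowest Klrg1-positive value exceeded the highest Cd27-positive one. Granzyme A (Gzma), a serine protease, stood at 14366, 14234 and 14760 CPM against 6551, 6672 and 3193 CPM (1.45, SE 0.15, adjusted p = 7.06e-08). Granzyme B (Gzmb), the caspase-activating protease, was at 2165, 3434 and 2124 CPM against 665, 577 and 116 CPM, a log2 fold of 2.29 (SE 0.33, adjusted p = 0.0173). Both granzymes were lowest in the Cd27-positive cells of replicate 3. Cma1, a chymase better known from mast cells, was at 575, 578 and 367 CPM against 234, 154 and 25.8 CPM (1.57, SE 0.20, adjusted p = 6.64e-08).

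The remaining called members of the granule list were Serpinb9b, Nkg7, Fasl, Ctsd, Stx11 and Serpinb9. Serpinb9b, a serine protease inhibitor, was at 77.3, 113 and 89.3 CPM against 26.7, 38.5 and 0 CPM, and the last value is 0 UMIs where 1 UMI would be 12.9 CPM (log2 fold 1.79, SE 0.44, adjusted p = 0.00845). Nkg7, a granule membrane protein, was at 6164, 6553 and 7167 CPM against 5037, 4441 and 3734 CPM (0.58, SE 0.13, adjusted p = 0.00281). Fasl, the death ligand that engages Fas, was at 462, 566 and 526 CPM against 282, 269 and 283 CPM (0.81, SE 0.16, adjusted p = 0.000784). For all 3 genes the sets did not overlap. The granule genes Ctsw, Srgn and Cst7 did not pass the test, with log2 folds of 0.10, 0.02 and 0.42. Without the replicate block, Gzma, Gzmb and Cma1 kept log2 folds of 1.40, 2.43 and 1.58 and lost their calls (adjusted p = 0.184, 0.222 and 0.0938), and Gzmb was also lost with Scrublet doublets left out (2.30, adjusted p = 0.128).

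**Figure D2:**
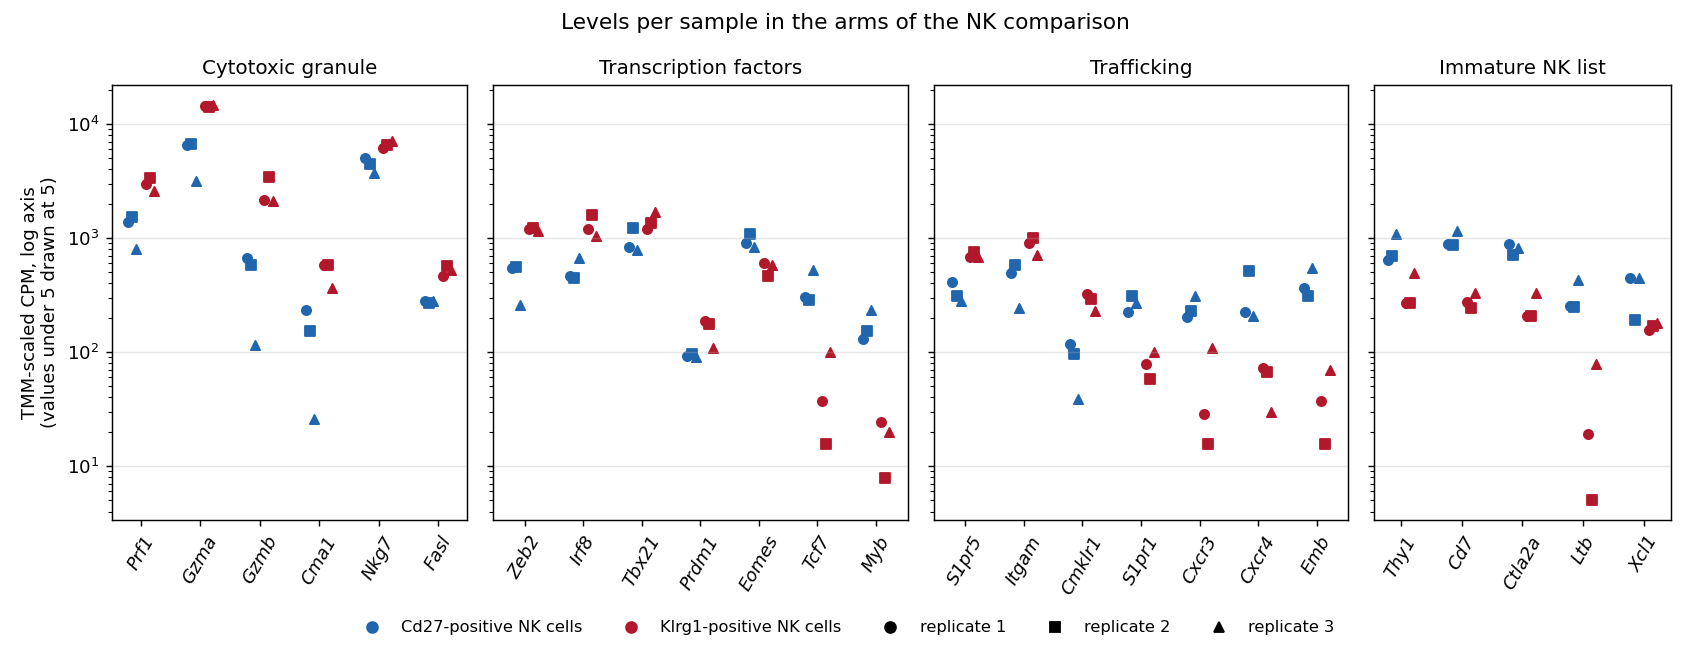
Level of each gene (TMM-scaled CPM, log axis, values under 5 drawn at 5) in Klrg1-positive and Cd27-positive NK cells, 1 point per replicate, with colours for the sets and a marker shape for each replicate. Prf1, Gzma and Zeb2 lie higher in Klrg1-positive cells of each replicate, and Tcf7, Emb and Ltb lie higher in Cd27-positive cells of each replicate.

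Transcription factors moved in both directions. Of 46 listed, 34 were tested, 4 were called higher (Zeb2, Irf8, Prdm1 and Tbx21) and 3 lower (Tcf7, Myb and Eomes). This was 20.6% called, against 3.35% of all genes tested, and the median log2 fold of the 34 was 0.11. Without replicate 1, 2 were higher and 3 lower of 30 tested. Zeb2, a zinc-finger repressor, was at 1195, 1214 and 1161 CPM in Klrg1-positive and 546, 558 and 258 CPM in Cd27-positive cells (log2 fold 1.32, SE 0.16, adjusted p = 1.79e-08). Irf8, an interferon regulatory factor, was at 1193, 1577 and 1052 CPM against 463, 442 and 670 CPM (1.28, SE 0.15, adjusted p = 3.19e-08). Neither gene's values overlapped between the sets. Tcf7 was at 37.6, 15.6 and 99.3 CPM against 303, 288 and 528 CPM, a log2 fold of -3.01 (SE 0.26, adjusted p = 2.49e-12). Myb, a factor of blood progenitors, was at 24.4, 7.81 and 19.9 CPM against 131, 154 and 232 CPM (-2.78, SE 0.36, adjusted p = 1.02e-07). For Tcf7 and Myb, every Cd27-positive value was above every Klrg1-positive one.

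The T-box pair was called in opposite directions. Tbx21, which encodes T-bet, was at 1195, 1350 and 1687 CPM in Klrg1-positive and 843, 1231 and 785 CPM in Cd27-positive cells (log2 fold 0.56, SE 0.14, adjusted p = 0.0138). Replicate 2 of the Cd27-positive cells lay inside the Klrg1-positive range, and the call was lost without replicate 1 (0.61, adjusted p = 0.0718) and without replicate 3 (0.39, adjusted p = 0.194). Eomes was at 610, 464 and 576 CPM against 902, 1077 and 837 CPM (-0.72, SE 0.14, adjusted p = 0.000731), with no overlap, and was not called without replicate 2 (-0.55, adjusted p = 0.0753). Prdm1, which encodes the repressor Blimp-1, was at 188, 176 and 109 CPM against 92.0, 96.1 and 90.1 CPM (0.90, SE 0.27, adjusted p = 0.0498), and its call was lost under 8 of the alternative settings, leaving out replicate 2 among them (0.90, adjusted p = 0.141). Id2, a helix-loop-helix inhibitor needed by NK cells, and Klf2, a factor of lymphocyte quiescence, did not pass the test (0.35, adjusted p = 0.196, and 0.38, adjusted p = 0.111). Runx3, Gata3 and Foxo1 had log2 folds of -0.10, -0.20 and 0.13 and were not called.

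The 250 bases before the transcription start of genes with large folds were read for the letters that T-box factors and TCF/LEF factors are known to bind. Windows come from RefSeq (GRCm38.p6) and were given for 9 of the 12 genes looked up. The T-box letters searched were GGTGTGA and the TCF/LEF letters CTTTGA, on both strands, and the motifs share no position in these windows. Those below are shown because Emb and Myb hold a match and are low in Klrg1-positive cells, while Ltb, also low, and Gzmb, high, hold none. Emb and Myb were the only genes of the 9 with a match. The windows of Tcf7, Smarcd3, Entpd1, Alas2 and Kcnj8, not printed, also held none. Letters in capitals are the match.
Emb, chr13:117220323-117220572, plus strand: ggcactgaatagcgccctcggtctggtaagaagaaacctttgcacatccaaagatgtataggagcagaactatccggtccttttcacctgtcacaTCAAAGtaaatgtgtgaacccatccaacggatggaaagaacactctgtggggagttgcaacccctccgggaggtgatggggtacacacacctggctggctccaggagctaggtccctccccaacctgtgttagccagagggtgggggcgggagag
Myb, chr10:21160985-21161234, minus strand: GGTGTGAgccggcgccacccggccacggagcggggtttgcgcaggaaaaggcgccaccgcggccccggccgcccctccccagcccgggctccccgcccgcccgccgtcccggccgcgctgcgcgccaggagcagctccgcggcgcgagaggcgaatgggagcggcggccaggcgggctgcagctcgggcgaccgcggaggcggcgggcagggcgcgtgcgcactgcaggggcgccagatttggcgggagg
Ltb, chr17:35194257-35194506, plus strand: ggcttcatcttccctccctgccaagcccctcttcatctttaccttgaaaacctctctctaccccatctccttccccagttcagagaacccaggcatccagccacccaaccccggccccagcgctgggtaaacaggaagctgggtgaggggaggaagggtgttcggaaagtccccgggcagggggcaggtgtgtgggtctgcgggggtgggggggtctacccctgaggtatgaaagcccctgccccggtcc
Gzmb, chr14:56262335-56262584, minus strand: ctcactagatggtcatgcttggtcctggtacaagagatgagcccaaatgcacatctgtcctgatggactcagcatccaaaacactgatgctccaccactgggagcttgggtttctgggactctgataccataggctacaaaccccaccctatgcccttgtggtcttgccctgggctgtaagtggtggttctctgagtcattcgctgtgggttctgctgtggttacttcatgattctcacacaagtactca
The Emb match is a TCF/LEF motif on the opposite strand, starting at base -155 from the start site, and the Myb match is a T-box motif at base -250. Counted per gene with a match in any of its windows, T-box letters were present in 3.84% of all 27025 genes with a window. They were present in 151 of the 4077 tested genes with a window (3.70%), in 4 of 69 genes called higher (5.80%) and in 7 of 53 called lower (13.2%). TCF/LEF letters were present in 15.8% of all genes with a window, in 11.8% of tested genes, in 12 of 69 genes called higher (17.4%) and in 7 of 53 called lower (13.2%). These shares were not tested, and a match is a run of letters, not a measured binding site.

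Receptors for movement and adhesion divided between the sets. Of 36 genes listed, 24 were tested, 7 were called higher and 9 lower (66.7% called, against 3.35% of all genes tested). The median log2 fold of the 24 was 0.15. Without replicate 1, 5 were higher and 5 lower. The 2 sphingosine-1-phosphate receptors of the list that passed moved oppositely. S1pr5, which guides NK cells out of marrow and lymph nodes, was at 685, 749 and 685 CPM in Klrg1-positive and 410, 308 and 283 CPM in Cd27-positive cells (log2 fold 0.94, SE 0.16, adjusted p = 3.98e-05). S1pr1, the receptor that T and B cells use to leave lymphoid organs, was at 78.3, 58.5 and 99.3 CPM against 223, 308 and 270 CPM (-1.66, SE 0.25, adjusted p = 3.97e-06). Integrin chains also differed in direction. Itgam, the CD11b chain, was at 909, 1003 and 715 CPM against 499, 577 and 245 CPM (0.96, SE 0.15, adjusted p = 1.49e-05), and its partner chain Itgb2 rose by a log2 fold of 0.71 (adjusted p = 0.000128). Itgax, the CD11c chain, had a log2 fold of -0.78 (adjusted p = 0.000598).

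The chemokine receptors Cxcr3, Cxcr4 and Ccr2 were lower in Klrg1-positive cells. Cxcr3, the receptor for interferon-induced chemokines, was at 28.5, 15.6 and 109 CPM in Klrg1-positive and 205, 231 and 309 CPM in Cd27-positive cells (log2 fold -2.65, SE 0.30, adjusted p = 3.79e-09). Cxcr4, which holds leukocytes in bone marrow through CXCL12, was at 73.2, 66.3 and 29.8 CPM against 226, 519 and 206 CPM (-2.07, SE 0.26, adjusted p = 6.45e-08). Ccr2, a monocyte chemokine receptor also found on NK cells, was at 275, 160 and 238 CPM against 733, 1057 and 940 CPM (-1.80, SE 0.16, adjusted p = 1.1e-11). For these 3 receptors the sets did not overlap. Cmklr1, the chemerin receptor, went the other way, at 322, 293 and 228 CPM against 119, 96.1 and 38.6 CPM (1.57, SE 0.23, adjusted p = 3.52e-06). Emb, which encodes the adhesion glycoprotein embigin and whose promoter window is printed above, had one of the lowest folds of all: 37.6, 15.6 and 69.5 CPM against 368, 308 and 541 CPM (-3.34, SE 0.25, adjusted p = 5.44e-14).

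Secreted factors and cytokine receptors gave 4 genes called higher (Ccl4, Ccl5, Il12rb2 and Il18rap) and 2 lower (Ltb and Xcl1) of 25 tested and 44 listed. This was 24% called, against 3.35% of all genes tested, and the median log2 fold of the 25 was -0.08. Without replicate 1, 1 was higher and 1 lower of 21 tested. Ccl5, a chemokine that attracts T cells and monocytes, was at 24651, 25766 and 19922 CPM in Klrg1-positive and 14710, 17862 and 11821 CPM in Cd27-positive cells (0.68, SE 0.12, adjusted p = 0.000121). Ccl4, a macrophage inflammatory protein, was at 463, 582 and 208 CPM against 169, 211 and 155 CPM (1.32, SE 0.19, adjusted p = 2.45e-06). The Ccl5 values did not overlap, whereas the Klrg1-positive Ccl4 value of replicate 3 lay within the Cd27-positive range, and without replicate 1 Ccl4 was not called (1.05, adjusted p = 0.0741). Lymphotoxin beta (Ltb), a membrane cytokine of lymphoid tissue organisation, was at 19.3, 0 and 79.4 CPM against 252, 250 and 425 CPM (-3.63, SE 0.33, adjusted p = 8.52e-12). By the DESeq2 Wald test Ltb was not called (-4.16, adjusted p = 0.0809). Xcl1, the ligand of the dendritic cell receptor XCR1, was at 156, 168 and 179 CPM against 448, 192 and 451 CPM (-1.29, SE 0.19, adjusted p = 3.97e-06), and it was not called without replicate 1 (-0.83, adjusted p = 0.271) or in cells matched for depth (-0.54, adjusted p = 0.254). Replicate 2 gave the smallest Xcl1 gap. Interferon gamma (Ifng) was at 85.4, 70.2 and 89.3 CPM against 80.1, 96.1 and 51.5 CPM, overlapping ranges that did not pass the test (0.10, adjusted p = 0.956). The cytokine receptor chains Il12rb2 (0.77, adjusted p = 0.00328) and Il18rap (0.51, adjusted p = 0.0282) were higher, the former not without replicate 1 (0.54, adjusted p = 0.433), while Il18r1 (-0.46, adjusted p = 0.0514) and Il2rb (-0.19, adjusted p = 0.628) did not pass.

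Those genes listed for immature NK cells and type 1 innate lymphoid cells that passed the filter on low counts were higher in Cd27-positive cells. Of 26 listed, 11 passed the filter on low counts, and all of these 11 were called lower in Klrg1-positive cells. This was 100% called, against 3.35% of all genes tested, with a median log2 fold of -1.74. A low gene passes that filter more readily when it is high in one set. Without the filter 12 of 25 were called lower and 0 higher, against 69 lower and 98 higher of all 11097 genes tested. Of the 11, 6 (Emb, Cxcr3, Tcf7, Ltb, Xcl1 and Cd160) also stand in another list, so the count of 11 is a description. Cd7, an immunoglobulin-family surface protein, was at 276, 246 and 328 CPM against 890, 865 and 1146 CPM (-1.74, SE 0.14, adjusted p = 5.87e-13). Thy1, the CD90 antigen, was at 272, 269 and 496 CPM against 644, 692 and 1082 CPM (-1.24, SE 0.14, adjusted p = 1.09e-08). Ctla2a, a cysteine protease inhibitor, was at 206, 207 and 328 CPM against 879, 711 and 811 CPM (-1.87, SE 0.15, adjusted p = 5.87e-13). None of these 3 overlapped. Cd160, a receptor for herpesvirus entry mediator, was at 44.7, 42.9 and 39.7 CPM against 140, 135 and 116 CPM (-1.62, SE 0.30, adjusted p = 0.000275), and was not called without replicate 1 (-1.57, adjusted p = 0.193). Il7r, the interleukin-7 receptor chain, and Kit, the stem cell factor receptor, were too low to test: Il7r had 19 UMIs in Cd27-positive and 15 in Klrg1-positive cells, and Kit 27 and 13, although the Cd27-positive cells had fewer UMIs in all.

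Few NK receptors passed the test, in both directions. Of 41 listed, 34 have an entry in the matrices and 18 were tested, of which Slamf7 and Cd48 were called higher and Cd160 lower (16.7% called, against 3.35% of all genes tested), with a median log2 fold of -0.01. Slamf7, a self-ligand receptor of the SLAM family, had a log2 fold of 0.76 (SE 0.19, adjusted p = 0.0106), and Cd48, the ligand of the SLAM-family receptor 2B4, 0.57 (adjusted p = 0.0306). Neither was called without replicate 1 (adjusted p = 0.123 for Slamf7 and 0.531 for Cd48), Slamf7 was also lost without replicate 2 (0.0772) and Cd48 without replicate 3 (0.0821). Among Ly49 genes, Klra4 had a log2 fold of -0.39 (adjusted p = 0.167), Klra8, the receptor of a mouse cytomegalovirus protein, 0.26 (adjusted p = 0.495) and Klra7 -0.49 (adjusted p = 0.208). Ly49 genes are near-identical copies whose probes may cross-detect, so their values are uncertain. The NKG2 family and its partner also did not pass: Klrc1 (NKG2A) -0.09, Klrk1 (NKG2D) -0.28 and Klrd1 (CD94) 0.17. With the cells matched for depth, Klra4 was called lower in Klrg1-positive cells (-0.72, adjusted p = 0.00133).

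Signalling genes gave 2 called higher of 32 tested (6.25%, against 3.35% of all genes tested). They were Dusp2, a phosphatase of MAP kinases (1.13, SE 0.28, adjusted p = 0.00901), and Fcer1g, the adaptor of Fc and NK receptors (0.46, SE 0.13, adjusted p = 0.0322). Tyrobp, the related adaptor DAP12, did not pass (0.06, adjusted p = 0.925). Dusp2 lost its call without replicate 1 (adjusted p = 0.109) and without replicate 2 (0.0553), and Fcer1g without replicate 2 (0.184) and without replicate 3 (0.192). Of 22 translation genes tested, 5 were lower and none higher (22.7% called, against 3.35% of all genes tested), with a median log2 fold of -0.33. The elongation factor Eef1a1 was at 3988, 3836 and 3980 CPM in Klrg1-positive and 5595, 5230 and 6464 CPM in Cd27-positive cells (-0.54, adjusted p = 0.00334), and Rack1, a ribosome-bound scaffold, had a log2 fold of -0.79 (SE 0.13, adjusted p = 4.92e-05). The others were the nucleolar protein Npm1 (-0.89) and the elongation factors Eef1b2 (-0.65) and Eef2 (-0.53). Of 17 immediate early and stress genes, 1 was called (5.88%, against 3.35% of all genes tested). This gene, Ier2, was higher (0.71, adjusted p = 0.0449) and lost its call when each replicate in turn was left out (adjusted p = 0.0767, 0.199 and 0.162). No gene was called by edgeR, or by the DESeq2 Wald test, among 7 proliferation, 18 energy metabolism, 14 interferon-stimulated and 13 apoptosis genes tested, of which 0, 3, 0 and 1 had an unadjusted p under 0.05 in edgeR. Without replicate 1, 3 of 16 translation genes were called. Over the settings tried, the number called ranged from 0 of 16 in thinned cells to 7 of 22 with plain library totals. The DESeq2 Wald test called 1 of 22, and 2 of 11 were called in cells matched for depth.

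**Figure D3:**
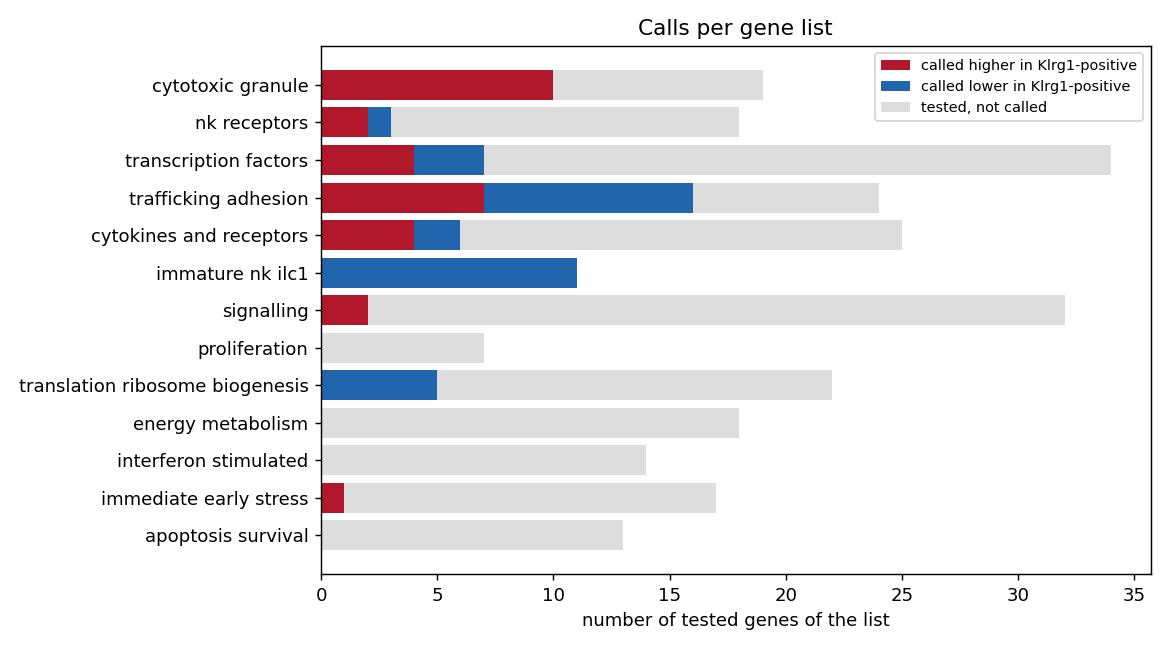
For each of the 13 gene lists, the bar gives the number of genes tested, split into genes called higher (red) and lower (blue) in Klrg1-positive cells and genes not called (grey). Cytotoxic granule genes were called in 1 direction, 10 of 19, and trafficking and adhesion genes in both, 7 higher and 9 lower of 24. Immature-list genes were called in the other, 11 of the 11 that passed the filter on low counts. Without that filter, 12 of 25 immature-list genes were called lower, against 69 of all 11097 genes tested.

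The 10 highest folds among called genes that moved alike in all replicates included Smarcd3, Entpd1, Kcnj8, Sept5, Timp2, S100a1 and Fam214b beside Gzmb, Serpinb9b and the red-cell gene Alas2. Smarcd3, a subunit of chromatin-remodelling complexes, was at 86.4, 121 and 109 CPM in Klrg1-positive and 14.8, 19.2 and 0 CPM in Cd27-positive cells (log2 fold 2.83, SE 0.48, adjusted p = 5.74e-05). Entpd1, the ectonucleotidase CD39, was at 191, 273 and 258 CPM against 32.7, 96.1 and 0 CPM (2.59, SE 0.34, adjusted p = 2.49e-07). The values of 0 come from the set with 17 cells. Kcnj8, a potassium channel subunit, and Timp2, a metalloproteinase inhibitor, had log2 folds of 2.29 (adjusted p = 0.000106) and 1.92 (adjusted p = 0.000332). The septin Sept5 (2.11, adjusted p = 0.00369), the calcium-binding protein S100a1 (1.85, adjusted p = 0.00724) and Fam214b (1.69, adjusted p = 0.0411) followed. Kcnj8 was not called without replicate 1 (adjusted p = 0.101), and Fam214b neither without replicate 2 (0.221) nor without replicate 3 (0.108). At the other end, beside Ltb, Emb, Tcf7, Myb, Cxcr3, Cxcr4 and Ctla2a, stood Carmil2, Kbtbd11 and Cd28. Carmil2, a regulator of actin capping that acts in CD28 signalling, was at 3.05, 3.90 and 19.9 CPM against 62.3, 76.9 and 90.1 CPM (-3.74, SE 0.59, adjusted p = 1.49e-05). Cd28, the T-cell costimulatory receptor, had a log2 fold of -1.93 (adjusted p = 0.000235) and Kbtbd11 one of -2.72 (SE 0.27, adjusted p = 1.44e-10).

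Cells with both transcripts and cells with neither lay between the 2 sets for most of these genes. Levels in this comparison are plain CPM of all counts, as mean ± SD of 3 replicates, without a test. Gzmb stood at 413 ± 269 in Cd27-positive cells, 1365 ± 193 with both, 1080 ± 221 with neither and 2289 ± 623 CPM in Klrg1-positive cells. The values with both and with neither overlapped each other but not those of Klrg1-positive or Cd27-positive cells. S1pr5 rose in the order Cd27-positive, both, neither and Klrg1-positive, with means of 306, 426, 568 and 630 CPM, and neighbouring classes did not overlap. Tcf7 was highest in Cd27-positive (342 CPM) and lowest in Klrg1-positive cells (45.6 CPM), with overlapping values between them for the classes with both (146 CPM) and with neither (150.2 CPM). Thy1 behaved otherwise: cells with both transcripts had 669 CPM, within the range of Cd27-positive cells (mean 739 CPM), while cells with neither had 369 and Klrg1-positive cells 309 CPM. Of the 87 genes called higher, the class with both lay between the means of the sets for 78 and the class with neither for 79. Of the 82 called lower the counts were 61 and 70. The genes were chosen for the difference between the sets, and the classes with both and with neither differ in depth, so these counts are a description.

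**Figure D4:**
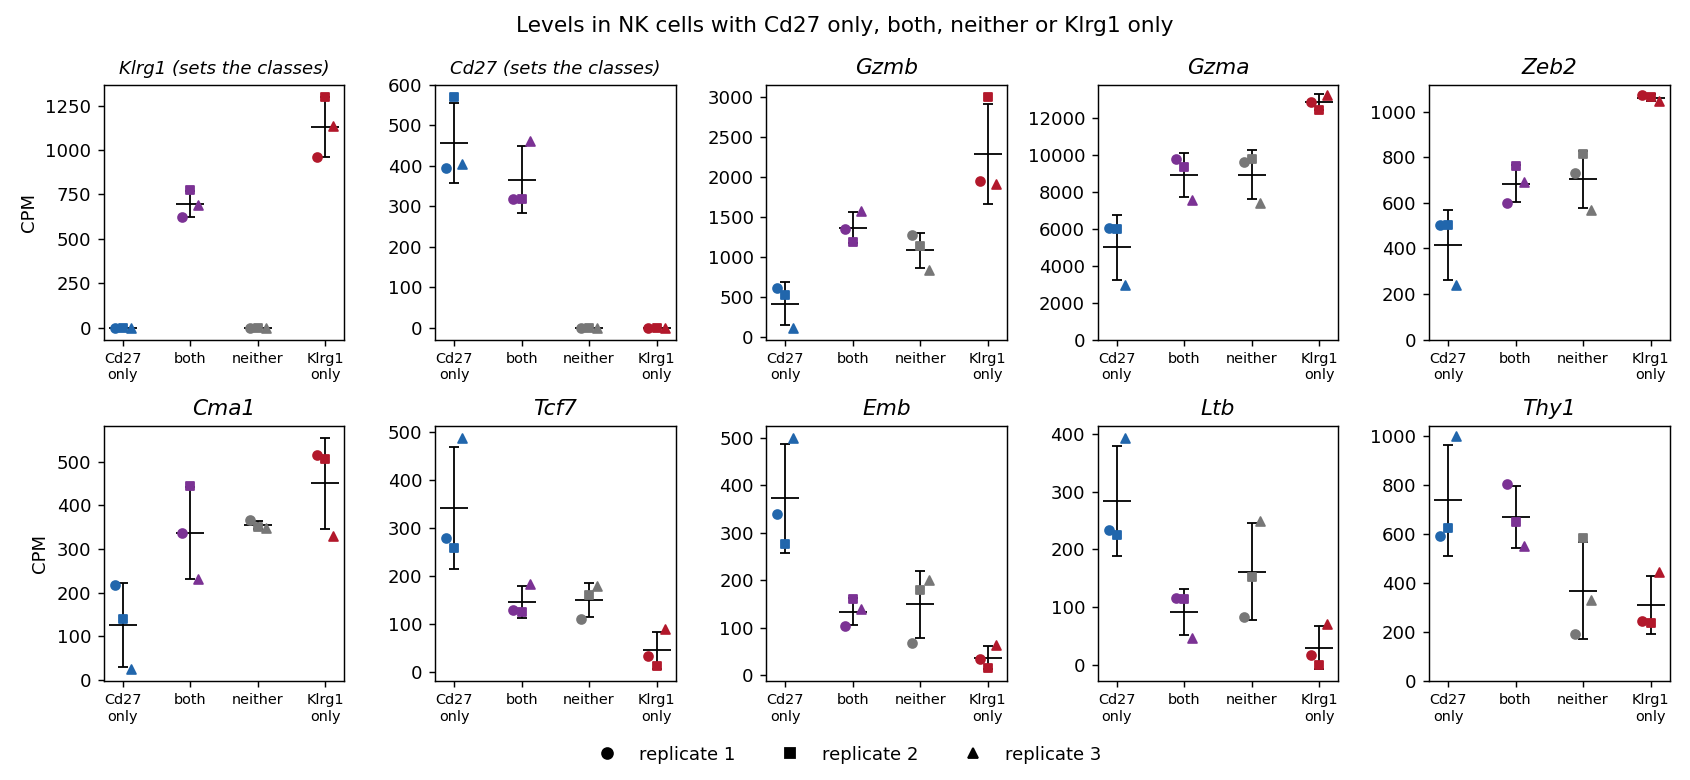
Plain CPM of selected genes in Cd27-positive NK cells, cells with both transcripts, cells with neither and Klrg1-positive cells, with 1 point per replicate, a horizontal line at the mean of 3 and error bars of 1 SD; the Klrg1 and Cd27 panels show the genes that set the classes. Gzmb is highest in Klrg1-positive cells, Tcf7 is highest in Cd27-positive cells, and the classes with both or neither lie between.

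Some marker genes of other cell types also differed between the sets. Of 16 T-cell markers 7 were tested, and Cd28, Trbc1 (-0.53, adjusted p = 0.0163), Trbc2 (-0.71, adjusted p = 0.0395) and Trdc (-0.66, adjusted p = 0.0407) were lower in Klrg1-positive cells. Without replicate 1, and likewise without replicate 2, 2 of the 7 were called. Trbc1 was detected in 72.3%, 74.4% and 72.7% of Klrg1-positive and 83.7%, 81.2% and 88.2% of Cd27-positive cells. Trac was detected in 2.58%, 0% and 3.03% of Klrg1-positive and 3.06%, 6.25% and 0% of Cd27-positive cells. A CD3 UMI was present in 2.26%, 2.56% and 6.06% of Klrg1-positive and 4.08%, 6.25% and 11.8% of Cd27-positive cells. With all cells that had a CD3 UMI left out, a setting chosen after the data were seen, 66 genes were called higher and 70 lower. Ighm, the immunoglobulin M heavy chain, was at 164, 141 and 248 CPM against 439, 634 and 644 CPM (-1.57, adjusted p = 3.79e-09), the 1 gene called of 4 tested and 10 listed B-cell markers. Without Ighm the summed level of the other 9 was 103, 226 and 465 CPM in Klrg1-positive and 104, 364 and 500.3 CPM in Cd27-positive cells. These ranges overlap, but within every replicate the sum was lower in Klrg1-positive than in Cd27-positive cells. Of 11 monocyte markers 2 were tested and Ccr2 was called. Without Ccr2 the summed level of the other 10 was 109, 95.7 and 17.9 against 115, 121 and 47.6 CPM. These ranges overlap, and this sum too was lower in Klrg1-positive cells of every replicate. No platelet, dendritic or basophil marker passed the filter. Beyond these values, the part of other cells' transcripts in the result was not tested.

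Red-cell transcripts were called higher in Klrg1-positive cells with few barcodes holding much of the signal. All 4 tested genes of the 7 listed (Hbb-bs, Hbb-bt, Hba-a2 and Alas2) were called, with a median log2 fold of 1.20. Hbb-bs, an adult beta globin, was at 207, 6198 and 1380 CPM in Klrg1-positive and 26.7, 3653 and 541 CPM in Cd27-positive cells (log2 fold 1.24). Replicate 2 was highest in both sets, and the sets overlapped. A single barcode held 38.5%, 26.8% and 61.6% of the haemoglobin UMIs of the Klrg1-positive cells in replicates 1 to 3, and the median haemoglobin count per cell was 0, 22 and 3 UMIs in Klrg1-positive against 0, 28 and 4 UMIs in Cd27-positive cells. With barcodes that Scrublet scored as doublets left out, 0 of the 4 genes were called by edgeR and their median log2 fold was 0.66. In replicates 1 to 3 these were 1, 2 and 0 Klrg1-positive and 1, 0 and 0 Cd27-positive barcodes. The Klrg1-positive ones held 0, 2083 and 0 haemoglobin UMIs, so the single barcodes of replicates 1 and 3 given above stayed in.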

How the data were processed

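UMI counts per gene and barcode were deposited as raw matrices of called cells for 3 libraries of a probe-based fixed-RNA kit, made with Cell Ranger 7.1.0 per the file headers. Neither the build nor the probe set was given in the sources used here. Other deposited columns hold identifiers.

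Cells were selected as stated, their counts summed per replicate and set, and Klrg1 and Cd27 left out. Genes were filtered with filterByExpr, scaled by TMM and fitted in edgeR 4.0.16 (R 4.3.3) with robust quasi-likelihood dispersion and the replicate as a block, which pairs the 2 sets of cells of 1 library. The 11 genes of the NK selection were given as description only. A change of fold 2 in simulated data (log2 of 1) was recovered for 69 of 97 genes, and a log2 of 2 for 98 of 98, with 7 false among 174 calls over 4930 genes. The changed genes were drawn only from those above a minimum count, a single dispersion served all genes, and no replicate differences were simulated. Recovery of genes as low as Carmil2 was therefore not tested. Alternatives were DESeq2 1.42.0, other scalings and filters, leaving out replicates, Scrublet doublets (scanpy 1.11.5; kept otherwise), thinning to 2000 UMIs, cells matched in depth within 10%, and stricter selections. Arms held 1092720, 292222 and 111819 UMIs (Klrg1-positive) and 365353, 57705 and 83921 UMIs (Cd27-positive), so replicates 2 and 3 are less precise.

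The cells and lists were chosen with earlier results of these data known. Named genes were 27 fixed by name, the 3 highest and 3 lowest called members of each list and the 10 highest and 10 lowest called genes of all tested, at 20 CPM or more and moved alike in all replicates; other genes were named after their values were seen. Genes with no entry in the matrices were not analysed here. Some called genes are not reported here by name.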

Additional observations from a re-analysis of the deposited data

How the results depend on the processing

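All 169 calls kept their direction under each alternative in which they could be tested, and the counts changed. Genes called higher and lower numbered 87 and 82 in the fit reported, 85 and 84 with DESeq2 size factors, 98 and 69 without a filter on low counts (11097 tested), 76 and 86 without the replicate block, 66 and 77 with Scrublet doublets left out, and 66 and 70 with CD3-UMI cells left out, the last chosen after the data were seen. They fell to 18 and 19 with the DESeq2 Wald test, all of them shared with the 169, to 34 and 37 in depth-matched cells (1368 tested), to 13 and 14 in cells thinned to 2000 UMIs (2661 tested), to 39 and 63 where the positive gene needed 2 UMIs, and to 49 and 56 with the stricter NK selection; fewer cells or UMIs enter each of these apart from the Wald test, for which the cause was not tested. Leaving out 1 replicate gave 34 to 72 higher and 39 to 89 lower. Among named genes, Cxcr4, Rack1, Npm1, Smarcd3, Eomes, Tbx21, Slamf7, Dusp2 (log2 fold 0.28) and Ccl4 (0.66) were among those not called in thinned cells. With the DESeq2 Wald test 26 named genes lost their calls. Ltb, Smarcd3, Eomes and Xcl1 were among them (Wald adjusted p = 0.0809, 0.0891, 0.188 and 0.188), as were Entpd1, Cd160 and Cd28 (0.310, 0.310 and 0.0809). Thinning also moved the shares of cells with both transcripts to 4.06% and with neither to 43.0%. Leaving out cells with any T-cell receptor or CD3 UMI was not run, since it left 0 Cd27-positive cells in replicate 2. Cytotoxic granule genes called higher ranged from 4 to 10 and immature-list genes called lower from 7 to 12 over these settings. Over all 5049 genes, 580 had an unadjusted p under 0.05 by edgeR and 165 by DESeq2. The 16 and 17 Cd27-positive cells of replicates 2 and 3 limit what low genes can show.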

Other observations

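Genes outside the lists above, named after their values were seen, also differed between the sets. They are single genes and stand for no group. Rap1b, a small GTPase of integrin activation, was at 1901, 2065 and 1777 CPM in Klrg1-positive and 1027, 1096 and 695 CPM in Cd27-positive cells (log2 fold 1.01, SE 0.14, edgeR adjusted p = 4.09e-07), the actin cross-linker Flna had a log2 fold of 0.64 (adjusted p = 0.00301), and the Rab27 effectors Sytl2 and Sytl3 had 0.91 (adjusted p = 0.0329) and 0.59 (adjusted p = 0.0178). The heparan sulphate proteoglycan Gpc1 was at 736, 1003 and 923 CPM against 344, 384 and 270.4 CPM (1.29, adjusted p = 3.72e-08), and the secreted fibrinogen-like protein Fgl2 at 900.0, 937 and 943 CPM against 442, 327 and 193 CPM (1.34, adjusted p = 5.31e-08). Neither gene overlapped between the sets.

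The D-type cyclins Ccnd3 (0.82, adjusted p = 7.98e-05) and Ccnd2 (0.61, adjusted p = 0.0103) were higher in Klrg1-positive cells, while none of the 7 tested proliferation genes was called. The galectin genes Lgals1 and Lgals3 went in opposite directions: Lgals1 was at 338, 379 and 298 CPM against 151, 173 and 155 CPM (1.11, adjusted p = 0.000128), and Lgals3 at 22.4, 23.4 and 29.8 CPM against 56.4, 154 and 129 CPM (-1.76, adjusted p = 0.00547). Hsd11b1, an enzyme that regenerates active glucocorticoid, was higher in Klrg1-positive cells (0.74, adjusted p = 0.00169).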
